A study of Mus with 6 samples.

Results

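The Toll-like receptors described here are the 10 mouse genes Tlr1, Tlr2, Tlr3, Tlr4, Tlr5, Tlr6, Tlr7, Tlr8, Tlr9 and Tlr13, taken by symbol from a table of 18887 genes. All 10 symbols were found in the table. They were split by where the protein acts, with 5 receptors of the cell surface (Tlr1, Tlr2, Tlr4, Tlr5, Tlr6) and 5 of endosomes (Tlr3, Tlr7, Tlr8, Tlr9, Tlr13). The study, on loss of insulin signalling in microglia, used RiboTag, in which a tagged ribosomal protein is precipitated with the mRNA its ribosomes carry. The precipitates came from whole mouse brain, and the cell type is labelled as microglia, immune cells that reside in the brain. The control group held 2 precipitates with a control genotype and the IRKO group held 4 with a knockout genotype, read here from the study's title as loss of the insulin receptor. Every sample of both groups is a RiboTag precipitate. The strain, age, treatment, knockout allele, the driver of the tag and of the knockout, and any pooling of animals are not stated in the labels. Nor do the labels tie replicates to different animals, and a p-value here covers only how these samples vary, possibly for technical reasons.

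Toll-like receptors recognise conserved molecules of microbes and of damaged cells, and microglia are their main carriers in the brain. Receptors at the cell surface bind lipids and proteins: TLR2 pairs with TLR1 or TLR6 on lipopeptides, TLR4 binds lipopolysaccharide together with MD-2, and TLR5 binds flagellin. The endosomal receptors sense nucleic acids. TLR3 binds double-stranded RNA, TLR7 and TLR8 sense single-stranded RNA and its breakdown products, TLR9 senses unmethylated CpG DNA and TLR13 a conserved stretch of bacterial ribosomal RNA. MyD88 is the adaptor of these receptors other than TLR3, which signals through TRIF, the product of Ticam1, and TLR4 can use either adaptor. Tlr3 is known from astrocytes and neurons as well as from microglia.

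Read depth ran from 13858978 to 19010680 reads per library, and values below are normalized counts, that is, reads divided by 1 size factor per library. Insr, the gene for the insulin receptor, was lower in all 4 IRKO libraries (290 to 366) than in the controls (565 and 532), with a log2 change of −0.70 ± 0.14 (SE, limma adjusted p = 0.00211). The groups differed broadly: 8173 of 14698 tested genes (55.6%) passed limma's test at an adjusted p of 0.05. Of 34 microglia markers 31 rose, 1 fell (Mertk) and 2 were not called, with a median log2 change of 1.52 and defining markers such as P2ry12 and Cx3cr1 read in every library. All 25 astrocyte markers fell, with a median of −4.16, and none of them was at 0 in all libraries. In both control precipitates the astrocyte markers summed to more (1329220 and 1057960 normalized counts) than the microglia markers did (187445 and 138817), against the label of microglia. In IRKO the order was the reverse, with 87079 to 120114 for astrocyte and 305425 to 414524 for microglia markers. Whether the tag was driven in the same cells in both groups is not stated in the labels, so a change within microglia and a difference in which cells were precipitated cannot be told apart in any IRKO minus control value below. In bulk precipitates, fewer cells of a type and less RNA per cell cannot be told apart.

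Transcripts of 7 receptors were higher and those of 1, Tlr3, were lower in IRKO. Tlr1, Tlr2, Tlr4 and Tlr6 of the surface group rose 2.46-fold to 3.12-fold. Of the endosomal group, Tlr7 rose 4.08-fold, Tlr13 rose 3.95-fold and Tlr3 fell 2.70-fold. Tlr9 was 5.28-fold higher, but entered the test only through its IRKO values and rests on few control reads. Folds here are taken on the scale of log2(value + 1), which understates the change of scarce genes. Tlr5 and Tlr8 were too scarce to be tested. The 8 tested receptors reached 10 normalized counts in 2 or more samples, and across all genes tested this way 26.6% were higher and 29% lower in IRKO. For each of the 8 the range of the IRKO values did not overlap that of the controls, which held for 67.6% of all tested genes. The median log2 change of all tested genes was 0.017. These directions hold for the values as deposited. With each library scaled to an equal mean of the microglia markers, which moved the median of all genes to −1.35, Tlr2, Tlr4 and Tlr6 changed sign, and Tlr3 stayed lower.

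**Figure D1:**
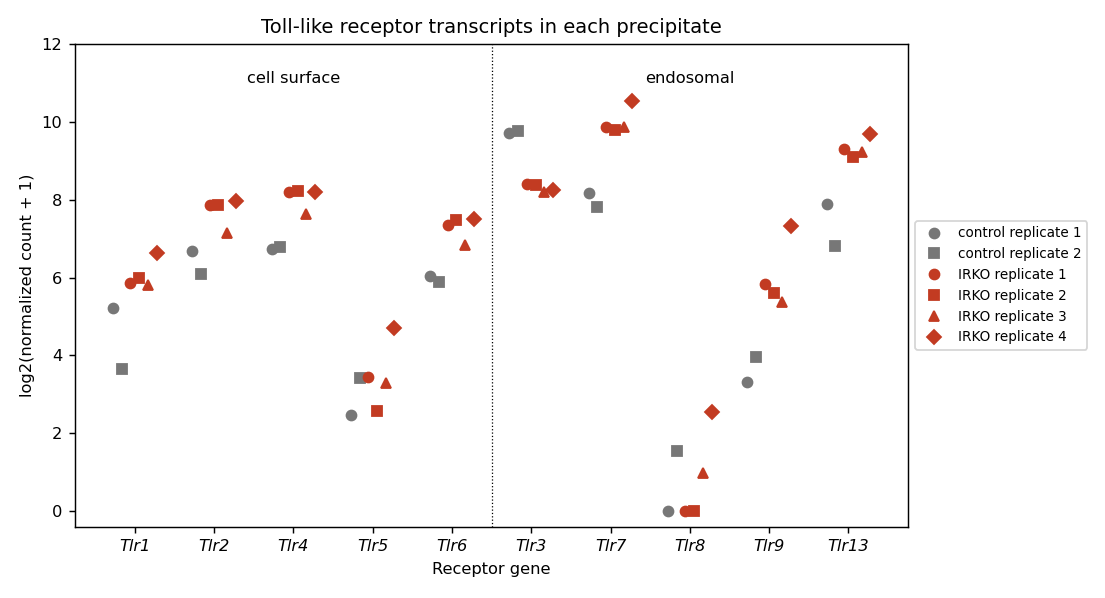
Normalized counts of the 10 receptor genes, as log2(value + 1), in each of 2 control (grey) and 4 IRKO (red) precipitates, 1 symbol per library. Tlr3 is the receptor whose 4 IRKO points lie below both controls, 7 receptors lie above them, and the points of Tlr5 and Tlr8 overlap.

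Among the surface receptors, Tlr4, the lipopolysaccharide receptor, spans positions 66827551 to 66846581 of chromosome 4 (GRCm38.p6). Its normalized counts were 105 and 109 in the controls and 290, 296, 196 and 293 in IRKO replicates 1 to 4. The IRKO libraries lay above both controls, and replicate 3 was the lowest of them. The log2 change was 1.30 ± 0.20 (SE, limma adjusted p = 0.000534, n = 2 against 4), a 2.46-fold rise. Tlr2, the shared subunit of the lipopeptide receptors, lies on chromosome 3 from 83836272 to 83841824. Its counts were 101 and 66.8 in the controls against 233, 233, 141 and 251, again with IRKO replicate 3 lowest and no overlap. Tlr2 rose 2.53-fold (log2 1.34 ± 0.27, SE, limma adjusted p = 0.00250).

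Tlr1 and Tlr6, whose proteins each pair with TLR2, are neighbours on chromosome 5, at 64924680 to 64933600 and 64953092 to 64970942, with 19491 bases between them. Tlr6 had 65.2 and 58.1 normalized counts in the controls and 163, 178, 113 and 180 in IRKO. The groups did not overlap, and Tlr6 rose 2.51-fold (log2 1.33 ± 0.23, SE, limma adjusted p = 0.00103). Tlr1 was scarcer and more uneven in the controls, at 36.0 and 11.6, against 57.5, 62.1, 55.4 and 98.4 in IRKO, where replicate 4 was the highest. Its rise of 1.64 ± 0.43 on the log2 scale (SE, limma adjusted p = 0.0101) rested partly on the second control. Without control replicate 2 it was 0.87 and no longer passed (limma adjusted p = 0.0989), and without control replicate 1 it was 2.42. The 2 genes have related coding sequences, and how reads that fit both were assigned is not given in the sources used here, so their separate values are uncertain. The end of Tlr6 also overlaps Fam114a1 by 868 bases. Fam114a1 had 181 and 148 counts in control libraries against 89.7 to 169 in IRKO ones, and was not called (log2 −0.46 ± 0.26, SE, limma adjusted p = 0.166).

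Ratios inside a library, taken as differences of log2(value + 1), depend on library scaling only through the added 1. That part is largest for scarce genes such as Tlr1 and Tlr9. The log2 level of Tlr2 minus that of Tlr6 was 0.63 and 0.20 in the controls and 0.51, 0.38, 0.32 and 0.48 in IRKO, so the IRKO values lay between the controls. Tlr4 minus Tlr6 was 0.67 and 0.90 in the controls and 0.70 to 0.82 in IRKO, also between them. The group means of these ratios differed by 0.0091 for Tlr2 and −0.026 for Tlr4, less than the spread of the controls. Tlr2 minus Tlr1 was 1.47 and 2.43 in the controls and 1.33 to 2.00 in IRKO, with overlap. These are differences of values not corrected for gene length, and say nothing of which receptor was the more abundant.

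Tlr7, the endosomal sensor of single-stranded RNA, lies on chromosome X from 167303380 to 167330574. It had 287 and 225 normalized counts in the controls and 941, 884, 937 and 1496 in IRKO. All 4 IRKO libraries lay far above the controls and replicate 4 stood above the other three. Tlr7 rose 4.08-fold (log2 2.03 ± 0.21, SE, limma adjusted p = 6.71e-05, n = 2 against 4). Tlr13, which binds bacterial ribosomal RNA, is also on chromosome X, from 106143275 to 106160493. Its counts were 235 and 111 in the controls and 629, 550, 595 and 826 in IRKO, without overlap and again highest in replicate 4. The log2 change of Tlr13 was 1.98 ± 0.27 (SE, limma adjusted p = 0.000324), ranging from 1.45 to 2.52 as either control was left out.

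Tlr9, the CpG DNA sensor on chromosome 9 from 106222598 to 106226876, was scarce in the controls. It had 9.0 and 14.5 normalized counts there, from 8 and 15 reads, and 56.5, 47.3, 40.8 and 161 in IRKO. IRKO replicate 4 held 165 reads where the other three held 42 to 57, and no IRKO value overlapped the controls. The log2 change was 2.40 ± 0.52 (SE, limma adjusted p = 0.00377), and 1.97 without IRKO replicate 4. Tlr9 reached the filter on low values through the group in which it was higher, since only 1 control value was above 10.

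Tlr3, the double-stranded RNA sensor on chromosome 8 from 45395665 to 45411075, went the other way. Its normalized counts were 842 and 874 in the controls and 340, 329, 295 and 305 in IRKO. Both groups were tight and did not overlap. Tlr3 fell by 1.43 ± 0.12 on the log2 scale (SE, limma adjusted p = 1.51e-05), and the change stayed between −1.47 and −1.40 when any 1 library was left out. The summed astrocyte markers given above were lower in the same 4 libraries. The astrocyte markers changed by −5.21 to −2.69, so the change of Tlr3 lay above the range of that list. The part of astrocyte RNA in the fall of Tlr3 was not tested. Of 25 neuron markers 18 rose and none fell as deposited (median 0.85), beside 26.6% higher and 29% lower among all tested genes. Scaled to the microglia markers none rose and 11 fell (median −0.53), beside 0.619% higher and 77.2% lower among all tested genes. The part of neuron RNA in the fall of Tlr3 was not tested either. Within libraries, Tlr7 minus Tlr3 was −1.55 and −1.96 in the controls and 1.42 to 2.29 in IRKO, a swing of 3.46 on the log2 scale.

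Tlr5 and Tlr8 did not pass the filter. Tlr5, the flagellin receptor on chromosome 1 from 182954752 to 182976044, had 4.50 and 9.68 normalized counts in the controls and 9.91, 4.93, 8.74 and 25.3 in IRKO. The groups overlapped, with 14 reads in all controls and 50 in all IRKO libraries, a ratio of 1.68 (95% counting interval 0.916 to 3.30). Tlr8 lies 39050 bases from Tlr7, from 167241123 to 167264329 on chromosome X, and had 0 and 2 reads in the controls and 0, 0, 1 and 5 in IRKO. Its ratio of 1.41 had a counting interval of 0.253 to 14.3. Both intervals include 1 and cover counting error only.

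Mice have 2 further receptors of the family, Tlr11 and Tlr12, which sense the parasite protein profilin from endosomes. Tlr11 had 1 read in each of the 6 libraries. Tlr12, on chromosome 4 from 128615446 to 128618619, had 139 and 143 normalized counts in the controls and 585, 658, 338 and 433 in IRKO. It rose 3.43-fold (log2 1.78 ± 0.24, SE, limma adjusted p = 0.000312), with IRKO replicates 1 and 2 highest, where Tlr7, Tlr9 and Tlr13 were highest in replicate 4. Scaled to the microglia markers, Tlr12 was at 0.41 (limma adjusted p = 0.144), or 0.31 with their median (limma adjusted p = 0.203), and was not called.

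Because nearly all microglia markers rose as well, each receptor was also set against the mean log2 level of those 34 genes in its own library. That mean was 11.05 and 10.72 in the controls and 12.35, 12.35, 11.95 and 12.39 in IRKO, lowest among the IRKO libraries in replicate 3. Tlr4 minus this mean averaged −4.13 ± 0.28 for controls (SD, n = 2) and −4.20 ± 0.082 for IRKO (SD, n = 4). Tlr2 stood at −4.50 ± 0.19 and −4.54 ± 0.17, and Tlr6 at −4.92 ± 0.12 and −4.96 ± 0.12 (SD, n = 2 and 4 for both). For these 3 surface receptors the groups overlapped and differed by less than their spread. Tlr1 differed by 0.27, from −6.45 ± 0.86 to −6.18 ± 0.32, also with overlap.

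The endosomal receptors differed among themselves on this scale. Tlr7 minus the marker mean was −2.88 and −2.90 in the controls and −2.47, −2.56, −2.07 and −1.84 in IRKO, higher in all 4 libraries by 0.65 on average. Tlr13 was at −3.17 and −3.91 against −3.05, −3.24, −2.73 and −2.70, so IRKO replicate 2 fell inside the control range. Tlr9 was at −7.73 and −6.76 against −6.51, −6.76, −6.56 and −5.05, with IRKO replicate 2 barely above the upper control. Tlr3 fell further on this scale than as deposited, from −1.14 ± 0.27 to −3.95 ± 0.16 (SD, n = 2 and 4).

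**Figure D2:**
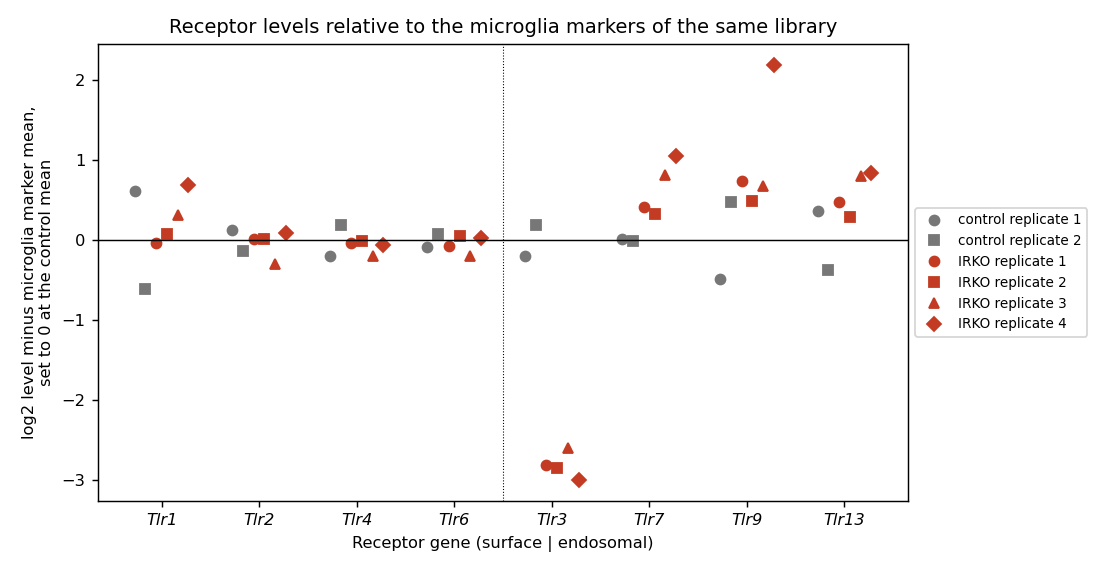
Log2 level of each tested receptor minus the mean log2 level of 34 microglia markers in the same library, shifted so that the control mean is 0; grey points are the 2 controls and red points the 4 IRKO libraries. Tlr2, Tlr4 and Tlr6 scatter around 0 in both groups, and Tlr3 lies near −2.81 in IRKO. Tlr7, Tlr9 and Tlr13 lie above 0 in all 4 IRKO libraries, though IRKO replicate 2 of Tlr13 lies inside the control range.

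With libraries scaled to the mean of the microglia markers, limma called Tlr7 (log2 0.66, limma adjusted p = 0.0169), Tlr9 (1.09, limma adjusted p = 0.0330) and Tlr13 (0.61, limma adjusted p = 0.0338) higher. In that scaling 0.619% of all genes were called higher and 77.2% lower. Of the 34 microglia markers themselves 5 were called higher, Itgam (0.73), Aif1 (0.62), Cd33 (0.61), Tgfbr1 (0.60) and Gpr34 (0.59), so Tlr7 and Tlr13 lay within the range of that list. Another 4 markers were called lower, Mertk (−2.57), Adgrg1 (−1.52), Sparc (−1.21) and Itgb5 (−0.66). Tlr3 was lower at −2.81 (limma adjusted p = 1.04e-10). The 95% intervals of Tlr2 (−0.58 to 0.52), Tlr4 (−0.59 to 0.46), Tlr6 (−0.61 to 0.54) and Tlr1 (−0.50 to 1.13) included 0. The 3 endosomal rises were less firm than those of the deposited values: none of them passed without IRKO replicate 4, only Tlr9 passed without control replicate 2, and only Tlr13 without control replicate 1. Without IRKO replicate 3, Tlr13 did not pass (0.54, limma adjusted p = 0.0586). As deposited, the markers Mertk, Sparc and Adgrg1 stood at −1.19, 0.17 and −0.15. When libraries were scaled to the median of the markers instead, Tlr7 still passed (0.56, limma adjusted p = 0.0247) and Tlr9 (1.00, limma adjusted p = 0.0559) and Tlr13 (0.52, limma adjusted p = 0.0607) did not.

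**Figure D3:**
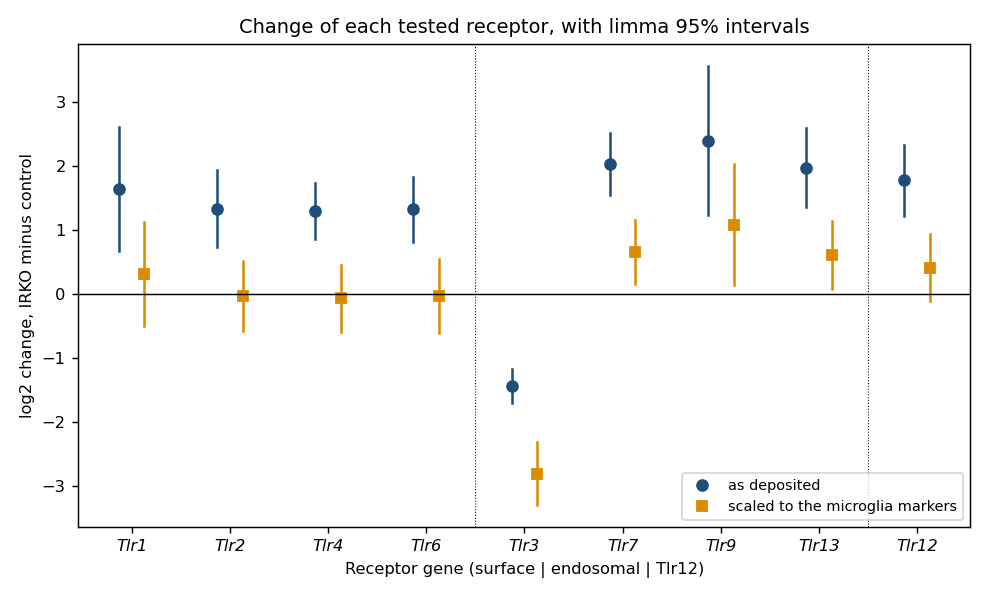
Log2 change (IRKO minus control) of the 8 tested receptors and Tlr12 with limma 95% confidence intervals, for the values as deposited (blue circles) and with libraries scaled to the mean of the microglia markers (orange squares). As deposited the tested receptors other than Tlr3 lie above 0, and after scaling the 4 surface receptors span 0 while Tlr3 lies at −2.81.

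The surface and endosomal groups were also set against each other inside each library. The mean log2 level of the 4 tested surface receptors minus that of the 4 tested endosomal receptors was −1.11 and −1.49 in the controls and −1.04, −0.83, −1.32 and −1.38 in IRKO. The groups overlapped, and the means differed by 0.16, with a range of −0.031 to 0.35 when any 1 library was left out. As a log2 ratio of summed values the difference was 0.67. This level mixes Tlr3, which fell, with 3 receptors that rose. Without Tlr3, a choice made after its values were known, it was −0.29 and −0.59 in the controls and −1.02, −0.78, −1.30 and −1.61 in IRKO, lower in all 4 by 0.74 on average. That difference ran from −0.88 to −0.59 when any 1 library was left out. As single pairs, Tlr7 minus Tlr4 was 1.45 and 1.03 in the controls and 1.69, 1.58, 2.25 and 2.35 in IRKO, with no overlap. Tlr9 minus Tlr4 did not overlap either, at −3.40 and −2.83 against −2.62 to −0.86. However, Tlr9 entered the test only through its IRKO values and rests on 8 and 15 control reads. This also limits the scores with and without Tlr3, of which Tlr9 is a part. Tlr13 minus Tlr4 did overlap, at 1.16 and 0.025 against 0.89 to 1.59. No p is given for these scores, since the members were chosen as a family.

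The genes whose profile over the 6 samples lay nearest to each receptor were found by the Euclidean distance between log2 values centred on each gene's mean, among 11031 genes with a mean value of at least 100. The nearest to Tlr4 was P3h2, at a distance of 0.062, followed by H2-T23 at 0.14. Nearest to Tlr2 were Sp110 (0.19) and Fcrls (0.20), a marker on the microglia list. For Tlr6 they were Pla2g15 (0.12) and Slc37a2 (0.14), and for Tlr1 Alox5 (0.31) and Naip5 (0.47). Tlr7 lay nearest to Dock2 (0.18), a regulator of leukocyte migration, and Tnfrsf11a (0.19). Tlr13 lay nearest to Fhl3 (0.28) and to Pik3cg (0.31), a leukocyte PI3-kinase subunit. No gene lay close to Tlr9, for which Mlph (0.96) and Zfhx3 (1.09) were nearest. For Tlr3 the nearest genes were Mdh2 (0.099), the mitochondrial malate dehydrogenase, and Tmem144 (0.13). All distances share the same 6 libraries and their scaling.

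Around the receptors, 106 genes in 7 lists of the pathway were examined, of which 96 were tested, 32 rose and 14 fell as deposited, beside 26.6% higher and 29% lower among all tested genes. With libraries scaled to the microglia markers only Cd14 (0.65, limma adjusted p = 0.00999) and Inpp5d (0.54, limma adjusted p = 0.0381) were called higher, and 58 were called lower, beside 0.619% and 77.2% of all tested genes.

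Of 12 co-receptor and ligand delivery genes 7 rose, 1 fell and 4 were not called, and the median log2 change was 0.84 as deposited and −0.52 relative to the microglia markers. Cd14, which hands lipopolysaccharide to TLR4, went from 373 and 291 normalized counts to between 1059 and 1561, a rise of 2.03 ± 0.18 (log2, SE, limma adjusted p = 1.97e-05). Ly96, which encodes MD-2, rose with it (1.45 ± 0.27). Ly86, the partner of the TLR4-like protein CD180, rose by 1.57 ± 0.17, while Cd180 itself was at 0.97 ± 0.39 and was not called (limma adjusted p = 0.0584). Among genes that serve endosomal ligands, Slc15a3, a lysosomal histidine and peptide transporter, rose by 1.71 ± 0.23 as deposited. Slc15a4, its relative needed for TLR7 and TLR9 signalling, rose by 0.72 ± 0.18 as deposited. Scaled to the microglia markers, Slc15a4 stood at −0.66 and was called lower (limma adjusted p = 0.0107). Slc15a3 stood at 0.34 on that scale and was not called (limma adjusted p = 0.197). Hmgb1, a chromatin protein released from damaged cells, fell (−0.62 ± 0.16), but did not pass when control replicate 1 was left out (limma adjusted p = 0.0634) or after quantile normalization (limma adjusted p = 0.0782).

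Of 19 tested chaperone, trafficking and processing genes 6 rose, 4 fell and 9 were not called, and the median was −0.054 as deposited and −1.43 relative to the microglia markers. Unc93b1, which carries the nucleic acid sensors from the endoplasmic reticulum to endosomes, had 1736 and 1423 normalized counts in the controls and 5447, 5525, 4179 and 5548 in IRKO. It rose by 1.71 ± 0.15 (log2, SE, limma adjusted p = 2.28e-05), between Tlr4 and Tlr7 in size. Ctss and Lgmn, proteases that cut endosomal receptors, rose by 1.79 ± 0.20 and 1.32 ± 0.17, and Pld4, an endosomal exonuclease that degrades TLR9 ligands, by 1.54 ± 0.18. Cnpy3, a chaperone that receptors of the surface and endosomes share, fell by 0.46 ± 0.12, but did not pass with control replicate 1 left out (−0.37, limma adjusted p = 0.104). Rab10 (−0.40 ± 0.10) and Ap3d1 (−0.36 ± 0.099), which act in vesicle traffic, lost theirs without control replicate 2 (limma adjusted p = 0.0579 and 0.0728). None of Cnpy3, Rab10 and Ap3d1 passed after quantile normalization. Rab7b, a GTPase of late endosomes, fell by 0.87 ± 0.26 (SE, limma adjusted p = 0.0178).

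Of 6 adaptors 2 rose, 1 fell and 3 were not called, and the median was 0.52 as deposited and −0.84 relative to the microglia markers. Ticam1, which encodes the adaptor TRIF of TLR3 and TLR4, had 492 and 390 normalized counts in the controls and 219, 249, 189 and 191 in IRKO. It fell by 1.05 ± 0.17 (log2, SE, limma adjusted p = 0.000730) without overlap, as Tlr3 did. Myd88 had 379 and 338 against 564, 653, 380 and 494, and was not called (log2 0.52 ± 0.20, limma adjusted p = 0.0518). Pik3ap1, an adaptor between these receptors and PI3-kinase, rose by 1.58 ± 0.21. Ticam2, the bridge from TLR4 to TRIF, rose by 1.17 ± 0.27, did not pass with control replicate 2 left out (limma adjusted p = 0.0554) and turned to −0.18 scaled to the microglia markers.

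Among 18 kinases and ubiquitin ligases 2 rose, 3 fell and 13 were not called, and the median was −0.024 as deposited and −1.39 relative to the microglia markers. Irak2, a kinase of the MyD88 complex, had the largest fall of this list, from 1434 and 1010 normalized counts to between 298 and 407 (log2 −1.77 ± 0.17, SE, limma adjusted p = 4.31e-05). Irak1 (−0.024 ± 0.15) and Irak4 (0.30 ± 0.26) were not called. Tab1 (−1.02 ± 0.20), a partner of the kinase TAK1, and Peli2 (−0.88 ± 0.15), a ligase acting on IRAKs, fell. Tab2 (0.53 ± 0.15) and Tab3 (0.44 ± 0.16), ubiquitin-binding partners of TAK1, rose as deposited and stood at −0.85 and −0.93 scaled to the microglia markers. On that scale both were called lower (limma adjusted p = 0.00228 and 0.00440), as were 77.2% of all tested genes. Tab2 did not pass with no filter (limma adjusted p = 0.0619), nor Tab3 with DESeq2 (adjusted p = 0.0741). Tab2 lost its call without control replicate 1 or 2 (limma adjusted p = 0.0971 and 0.0726). Tab3 lost its call without any 1 library other than IRKO replicate 4 (limma adjusted p = 0.0525 to 0.223).

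Of 12 transcription factors 4 rose, 2 fell and 6 were not called, and the median was 0.46 as deposited and −0.90 relative to the microglia markers. Irf5, which TLR7 and TLR9 activate through MyD88, rose by 1.74 ± 0.17 (log2, SE, limma adjusted p = 4.29e-05) and Irf8, a myeloid lineage factor, by 1.51 ± 0.16. Irf3, which TRIF activates, fell by 1.00 ± 0.12 (limma adjusted p = 0.000128), from 1125 and 993 normalized counts to between 485 and 564. Rela, the transactivating NF-kB subunit, was at −0.027 ± 0.11 and was not called. Nfkb1 rose by 0.90 ± 0.18 as deposited and stood at −0.47 scaled to the microglia markers. Jun fell (−0.43 ± 0.13), but not past the threshold with control replicate 1 left out (−0.25, limma adjusted p = 0.174) or after quantile normalization (limma adjusted p = 0.139).

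Negative regulators rose in 7 of 18 cases, fell in 2 and were not called in 9, and the median was 0.43 as deposited and −0.93 relative to the microglia markers. Among the 7, Irak3 (12.4 and 7.75 normalized counts in the controls) entered the test only through its IRKO values. Inpp5d, a lipid phosphatase that restrains these receptors, rose by 1.92 ± 0.16 (log2, SE, limma adjusted p = 1.51e-05), Dok3, an inhibitory adaptor of myeloid cells, by 1.72 ± 0.19 and Lyn, a Src-family kinase, by 1.21 ± 0.15, though Lyn stood at −0.16 scaled to the microglia markers. Tollip, an IRAK-binding inhibitor, fell (−0.47 ± 0.10) and was not called under quantile normalization (limma adjusted p = 0.203). Nfkbib, an inhibitor of NF-kB, fell by 0.60 ± 0.13.

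Of 20 cytokine and chemokine targets only 11 were tested, of which 4 rose, 1 fell and 6 were not called, and the median was 0.99 as deposited and −0.32 relative to the microglia markers. Classical products of receptor stimulation were scarce in both groups: Tnf lay between 0 and 6.80 normalized counts, Il6 between 0 and 6.90, and Il10 had 0 reads in every library. Il1b had 16.9 and 7.75 counts in control libraries against 9.74 to 20.8 in IRKO ones and was not called. Cd86, a costimulatory receptor, rose by 1.50 ± 0.21, and Ptgs2, the inducible cyclooxygenase, by 1.33 ± 0.26 as deposited, but −0.0064 scaled to the microglia markers. Ccl2 had 10.1 and 10.7 counts against 21.8, 19.7, 41.8 and 19.5. Its rise (1.16 ± 0.41, limma adjusted p = 0.0384) stood at −0.13 scaled to the microglia markers and lost its call without either control (limma adjusted p = 0.120 and 0.0999) or without IRKO replicate 1 or 3 (limma adjusted p = 0.0561 and 0.0792). Ccl2 also did not pass after quantile normalization (limma adjusted p = 0.0580), with no filter (limma adjusted p = 0.0628) or with DESeq2 (adjusted p = 0.0610). Il18, whose precursor is matured by caspase-1, fell by 2.72 ± 0.15 (limma adjusted p = 1.35e-06).

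**Figure D4:**
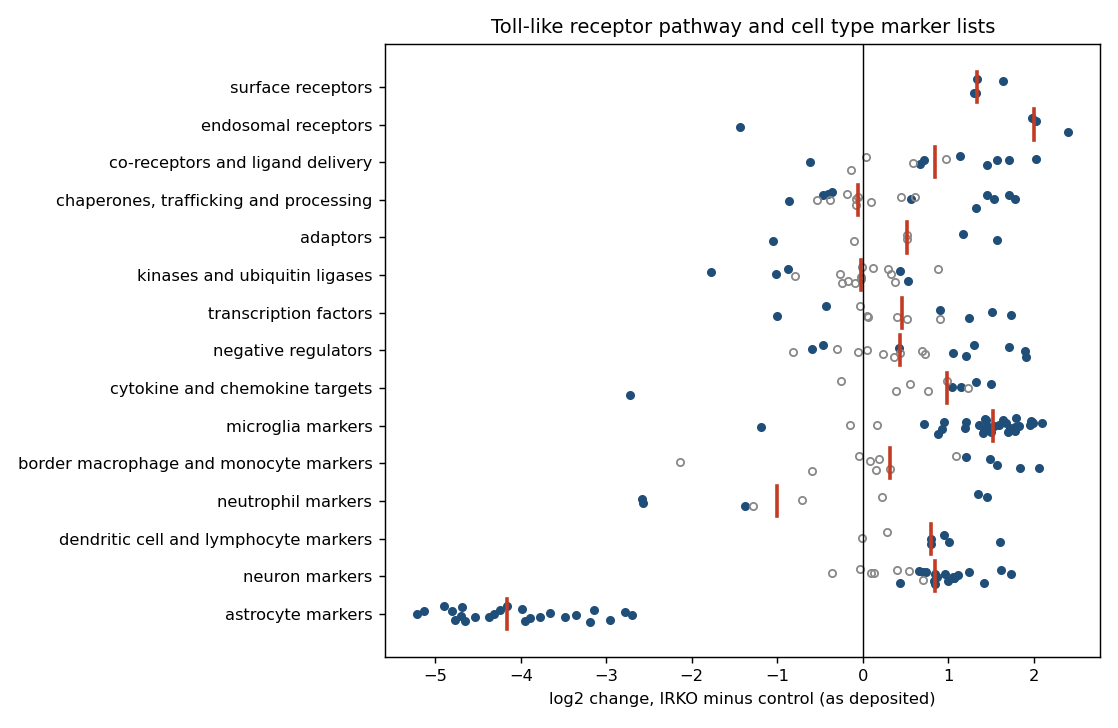
Log2 change (IRKO minus control, as deposited) of the tested genes in the receptor, pathway and cell type marker lists, 1 point per gene, spread vertically for legibility. The oligodendrocyte list, the endothelial and mural list, and Tlr12 are not drawn. Filled points passed limma's test, open points did not, and red bars are list medians. The microglia markers span a wide range, from −1.19 to 2.10. The receptors that rose lie inside it, except Tlr9 at 2.40, and the pathway lists spread to both sides of 0.

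Other cells that carry Toll-like receptors were checked by their markers. Beside the counts below, 26.6% of all tested genes were higher and 29% lower as deposited. Scaled to the microglia markers, the shares of all tested genes were 0.619% higher and 77.2% lower. Of 13 tested border macrophage and monocyte markers 5 rose, none fell and 8 were not called. Among the 5, Cd163 (7.87 and 8.71 normalized counts in the controls) and Ccr1 (6.75 and 6.78) entered the test only through their IRKO values. The median of the list was 0.32 as deposited and −0.97 relative to the microglia markers. The list summed to 1190 and 750 normalized counts for controls against 2339 to 2800 for IRKO. Most of that sum was Stab1, at 833 and 516 for controls against 1532 to 2352 for IRKO. Scaled to the microglia markers, Stab1 stood at 0.20 and was not called (limma adjusted p = 0.426). Mrc1, the mannose receptor of border macrophages, had 34.9 and 16.5 counts for controls against 84.5 to 122 for IRKO. Its log2 change of 2.06 was the largest of the list. Pf4 (0.32), F13a1 (0.080), Ccr2 (−0.039), Cd44 (−0.59) and Clec12a (−2.14) were among those not called. Of 8 tested neutrophil markers 2 rose, 3 fell and 3 were not called, with a median of −1.0 as deposited. Scaled to the microglia markers none rose and 5 fell, with a median of −2.28. The list had sums of 1007 and 412 against 856 to 1163. S100a8 and S100a9, abundant in neutrophils, were among those that fell as deposited, and the largest rise of the list was 1.46 on the log2 scale. Of 7 tested dendritic cell and lymphocyte markers 5 rose and 2 were not called (median 0.80, or −0.53 scaled to the microglia markers), the list summing to 828 and 859 against 1287 to 1805. The neutrophil gene Ly6g and the B cell gene Ms4a1 had at most 2.25 normalized counts in any library. Oligodendrocyte markers rose in 11 and fell in 3 of 20 cases (median 0.86, −0.51 scaled to the microglia markers), and endothelial and mural markers rose in 10 and fell in 2 of 22 (median 0.72, or −0.63). The part of these cells in the receptor values was not tested.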

How the data were processed

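The deposited table holds 1 normalized signal value per gene and library, which the authors made from read counts. Dividing by the value of 1 read in each library gave whole reads for 100% of values (within 0.05 reads). In IRKO replicate 1 that value was 0.991, close to 1, and 100% of the values of this library were whole reads as well. Bowtie2 and GRCm38.p6 are named per the submitters' processing notes; no source used here gives the counter, annotation, strandedness or normalization tool. Genes reaching 10 in 2 or more samples entered limma 3.58.1 (R 4.3.3) on log2(value + 1), with a mean-variance trend, two-sided, adjusted by Benjamini-Hochberg over 14698 genes at 0.05. The script was tested on simulated data. edgeR 4.0.16 and DESeq2 1.42.0 were run on recovered reads as alternatives, with other pseudocounts, filters, scalings, a variance model without trend, sample weights, a replicate block and each library left out. Scaling to the median of the microglia markers, that scaling or the edgeR and DESeq2 runs with libraries left out, and scores without Tlr3 were added after seeing the data. Members and lists were chosen with earlier results of these data known. All receptors are named, with the 3 pathway genes of smallest p per list and direction; others named alongside passed the test or were chosen after their values were seen. Coordinates are from RefSeq (GRCm38.p6), in which 18542 symbols matched. Levels per length were not computed, so no receptor's level is set against another's as abundance. No pair of replicates agreed within sampling noise (chi-square per degree of freedom 16.8 to 36.9).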

Additional observations from a re-analysis of the deposited data

Results flagged for a closer look

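In groups of 4, a library was marked where its gap to the nearest of the others exceeded Dixon's 95% limit, which chance passes in about 1 of 20 groups; 10 of 55 values tested were marked. IRKO replicate 4 stood above the other IRKO libraries for Tlr1 (98.4 normalized counts, others 55.4 to 62.1), Tlr7 (1496, others 884 to 941) and Tlr9 (161, others 40.8 to 56.5). For Tlr9 it did so relative to the microglia markers as well, at −5.05 against −6.76 to −6.51 on the log2 scale. IRKO replicate 3 stood below the others for Tlr2 (141, others 233 to 251) and Tlr4 (196, others 290 to 296). The same library was low for Unc93b1 (4179, others 5447 to 5548), Irf5 (750 against 1035 to 1087) and Irf8 (1271, others 1701 to 1776). It was high for Ccl2, at 41.8 against 19.5 to 21.8.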

How the results depend on the processing

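Tlr3 stayed lower and called under every alternative run. Scaling to the mean of the microglia markers left 3 receptors higher and scaling to their median left 1; leaving out single libraries gave 6 to 7 as deposited and 0 to 3 with mean scaling. Pathway genes called higher numbered 2 under either marker scaling, and those called lower 58 (mean), 60 (median) and 8 (quantile normalization). Over all genes 91 were higher and 11352 lower with mean scaling, and 74 and 12018 with median scaling. Tlr1 had an adjusted p of 0.0610 in limma with no filter (log2 1.64), and stood at 0.31 and 0.22 under mean and median scaling. Under these scalings Tlr2 was at −0.027 and −0.12, Tlr4 at −0.065 and −0.16, Tlr6 at −0.033 and −0.13, Ticam2 at −0.18 and −0.28, Tab2 at −0.85 and −0.94, Tab3 at −0.93 and −1.02, Nfkb1 at −0.47 and −0.57, Lyn at −0.16 and −0.26, Ptgs2 at −0.0064 and −0.10, and Ccl2 at −0.13 and −0.23. With median scaling Tlr9 was at 1.00 and Tlr13 at 0.52, no longer called. With mean scaling and a library left out, Tlr1 ran from −0.32 to 0.95, Tlr2 from −0.16 to 0.11, Tlr4 from −0.26 to 0.13, Tlr6 from −0.11 to 0.047, Tlr7 from 0.53 to 0.77, Tlr9 from 0.60 to 1.58 and Tlr13 from 0.24 to 0.99. Tlr1 as deposited ran from 0.87 to 2.42. The surface minus endosomal difference ran from −0.031 to 0.35 with a library left out, and was 0.67 as a log2 ratio of sums and −0.74 without Tlr3 (−0.88 to −0.59 with a library left out). Relative to the microglia markers, leaving out a library moved Tlr1 from −0.34 to 0.88, Tlr4 from −0.27 to 0.12, Tlr3 from −3.00 to −2.62 and Tlr13 from 0.24 to 0.98. The cause of these changes was not tested.

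Replicate numbers 1 and 2 occur in both groups, and deviations of same-numbered samples correlated at −0.082 and 0.079. With only 2 controls, the deviations of control replicate 1 are the mirror image of those of control replicate 2. These correlations therefore cannot settle whether same-numbered samples share a batch or are paired. With the replicate block 3244 genes were higher and 3691 lower; of the genes named by rule, Ap3d1 (−0.34, limma adjusted p = 0.0535), Tab3 (0.43, limma adjusted p = 0.135) and Ccl2 (0.93, limma adjusted p = 0.131) lost their calls. With only 2 controls, leaving out either leaves a lone sample assumed to vary like the IRKO group. Depth limits Tlr5, Tlr8 and Tlr11, which had at most 26 reads in any library.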
